A study of Mus musculus with 10 samples.

Results

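The genes described here are 9 markers of B cells, namely Cd79a, Cd79b, Ms4a1, Pax5, Cd22, Blnk, Cr2, Fcer2a and Cxcr5, measured by RNA-seq in inguinal white adipose tissue (iWAT), the subcutaneous fat pad of the groin. They were taken by name from the 51826 genes listed for each mouse, and all 9 were found and passed the filter on low counts in every comparison. The study asked how a low-protein diet (LPD) eaten by males changes gene expression in their own iWAT and in that of their sons. All 10 mice were C57BL/6 males, with 1 library per mouse. The F1 groups, taken at the age of 5 weeks, held 3 sons of fathers fed the control diet (F1 CD) and 3 sons of fathers fed the LPD (F1 pLPD, for paternal LPD). All of these sons had mothers fed the control diet (CD) and were weaned onto the CD themselves, so that only the father's diet differed, and the 3 mice of a group came from 3 mothers. The F0 groups were males of 10 to 12 weeks that ate the CD (F0 CD, n = 2) or the LPD (F0 LPD, n = 2) from weaning. Reads on exons numbered 6351075 to 10044546 per mouse, and a level of 3 reads corresponded to 0.299 to 0.472 CPM (counts scaled to the exon reads of the library after TMM normalization), where only counting error is considered.

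B cells carry an antigen receptor made of a membrane immunoglobulin and a signalling pair, CD79A and CD79B, whose tails pass the signal to the kinase SYK and the adaptor BLNK. PAX5 is the transcription factor that holds cells in the B lineage, and CD20 (Ms4a1), CD22, CD21/35 (Cr2) and CD23 (Fcer2a) are surface proteins of mature B cells that tune the receptor's response. CXCR5 guides B cells into the follicles of lymph nodes along the chemokine CXCL13. The inguinal fat pad normally surrounds a lymph node, and B cells are also found in the stroma of the fat itself. Whether the node was left in the samples is not stated in the sources used here. In whole tissue, more B cells and more RNA of these genes per B cell cannot be told apart.

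Sequences before RefSeq start sites of the genes are shown because the 9 genes varied together between mice (see the co-variation values), and because PAX5, EBF1, E2A proteins and octamer factors are the regulators known for B cell genes. RefSeq start sites on GRCm38.p6 were given for 6 of the 9 genes, with 8 windows of 250 bases before a start. No entry was matched for Cd79b, Ms4a1 and Cxcr5. The windows were searched on both strands for the octamer ATGCAAAT, the EBF motif CCCNNGGG, the E2A motif CAGGTG, the PU.1 motif GAGGAAGT and the NF-kB motif, and capitals mark the matches. None of the matches printed overlaps another, except that the EBF motif reads the same on both strands. Cr2 is shown as the gene with matches to both the NF-kB and the E2A motif, at chr1:195176720-195176969 on the minus strand. Cd79a is shown at chr7:24897247-24897380 on the plus strand, which leaves out the 116 bases of its window that lie in an annotated exon. Fcer2a is shown at chr8:3690862-3691111 on the minus strand, its only window with an E2A match, which lies inside the gene before an inner start. Blnk (chr19:40994333-40994362, minus strand) and Cd22 (chr7:30879058-30879087, minus strand) are shown as the 30 bases around the octamer and around the EBF match. These last windows lie inside the GENCODE gene and not upstream of it, with all 250 bases of the Blnk window and 102 of the Cd22 window in annotated exons.
Cr2: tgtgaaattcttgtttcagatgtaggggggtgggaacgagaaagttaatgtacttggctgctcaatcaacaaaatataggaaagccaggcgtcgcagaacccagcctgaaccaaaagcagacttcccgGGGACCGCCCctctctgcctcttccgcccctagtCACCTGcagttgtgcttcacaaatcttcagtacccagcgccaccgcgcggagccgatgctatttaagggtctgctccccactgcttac
Cd79a: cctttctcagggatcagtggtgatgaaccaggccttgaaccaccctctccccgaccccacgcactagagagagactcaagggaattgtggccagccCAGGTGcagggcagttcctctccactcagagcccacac
Fcer2a: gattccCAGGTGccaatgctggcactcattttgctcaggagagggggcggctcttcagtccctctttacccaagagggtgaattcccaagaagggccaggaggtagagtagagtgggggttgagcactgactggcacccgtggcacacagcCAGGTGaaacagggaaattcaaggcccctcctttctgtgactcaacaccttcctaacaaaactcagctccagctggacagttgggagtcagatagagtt
Blnk: tactggaagggATTTGCATgcccaataagg
Cd22: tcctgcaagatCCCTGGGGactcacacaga

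The E2A motif was found in 5 of the 8 windows of the B cell genes, those of Cr2, Cd79a, Cd22 and Blnk and 1 window of Fcer2a, and in 17.2% of all 32851 RefSeq windows of this length. The octamer was found in 1 window, that of Blnk, and in 1.60% of all windows. The EBF motif was found in 1 window, that of Cd22, and in 11.8% of all windows. The NF-kB motif was found in 1 window, that of Cr2, and in 17.6% of all windows, and the PU.1 motif was found in 0 of the 8 and in 2.44% of all. The Pax5 window held none of the 5 motifs. These matches are descriptions of the letters and not binding sites.

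All 9 genes had reads in every mouse, from 137 reads for Blnk to 1362 reads for Cd22 as the lowest and highest counts of any mouse. Compared per exon length, as the authors' RPKM averaged over the 10 mice, the receptor pair stood highest, with Cd79b (chr11:106311341-106314762) at 26.7 ± 4.62 and Cd79a (chr7:24897381-24902197) at 21.5 ± 4.52 (SD, n = 10). Cd22 followed at an RPKM of 11.5 and Fcer2a at 11.4. Cd22 was above Fcer2a in only 7 of the 10 mice, so this pair cannot be ordered. Pax5 had an RPKM of 6.13, Ms4a1 5.47, Cr2 4.73 and Cxcr5 4.06, with Pax5 above Ms4a1 and Ms4a1 above Cr2 in 9 mice each. Blnk, the intracellular adaptor, was lowest at 2.50, below Cxcr5 in all 10 mice. These levels placed the genes between the 65.7th percentile (Blnk) and the 97.0th percentile (Cd79b) of the 21943 annotated protein-coding genes. That total includes genes without reads in this tissue.

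The reads behind the genes differed in kind. For Ms4a1 (chr19:11249675-11266241, minus strand), which encodes CD20, only 29.5% of the exon reads matched this gene alone, so its values are less certain than those of the other 8 genes, for which 93.4% or more were unique. Pax5 (chr4:44524757-44710487) and Blnk (chr19:40928927-40994535) are long genes, and introns held 79.5% and 80.5% of their reads. Cxcr5 (chr9:44511787-44561877, minus strand) lies in a region shared with Bcl9l on the other strand, and only 1.62% of its exon reads crossed an exon junction, against 11.2% to 41.4% in the other genes. The libraries were made with a kit that marks strand, but the strand setting of the counting is not stated in the sources used here, so reads of Bcl9l cannot be told from those of Cxcr5. Genes on the other strand also overlap Pax5 (Gm12462, 4930517J16Rik and 5730488B01Rik), Ms4a1 (4930526L06Rik) and Cd22 (Gm29439). The same limit holds for them.

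The genes were set beside 20 other B cell genes. All 20 had reads in every mouse, as did all genes of the macrophage (6), adipocyte (6), endothelium (4) and plasma cell (7) lists. Presence of reads therefore does not check the label of the genes. Markers of lymph node stroma were present in every mouse. Glycam1, made by the high endothelial venules of lymph nodes, ranged from 11.7 to 82.3 CPM, and Ccl21a, a chemokine of the T cell zone, from 100 to 165 CPM. The 10 genes of the lymph node stroma list summed to 248 to 300 CPM in the F0 mice and 307 to 351 CPM in the F1 mice. How much of the B cell signal came from a node was not tested.

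**Figure D1:**
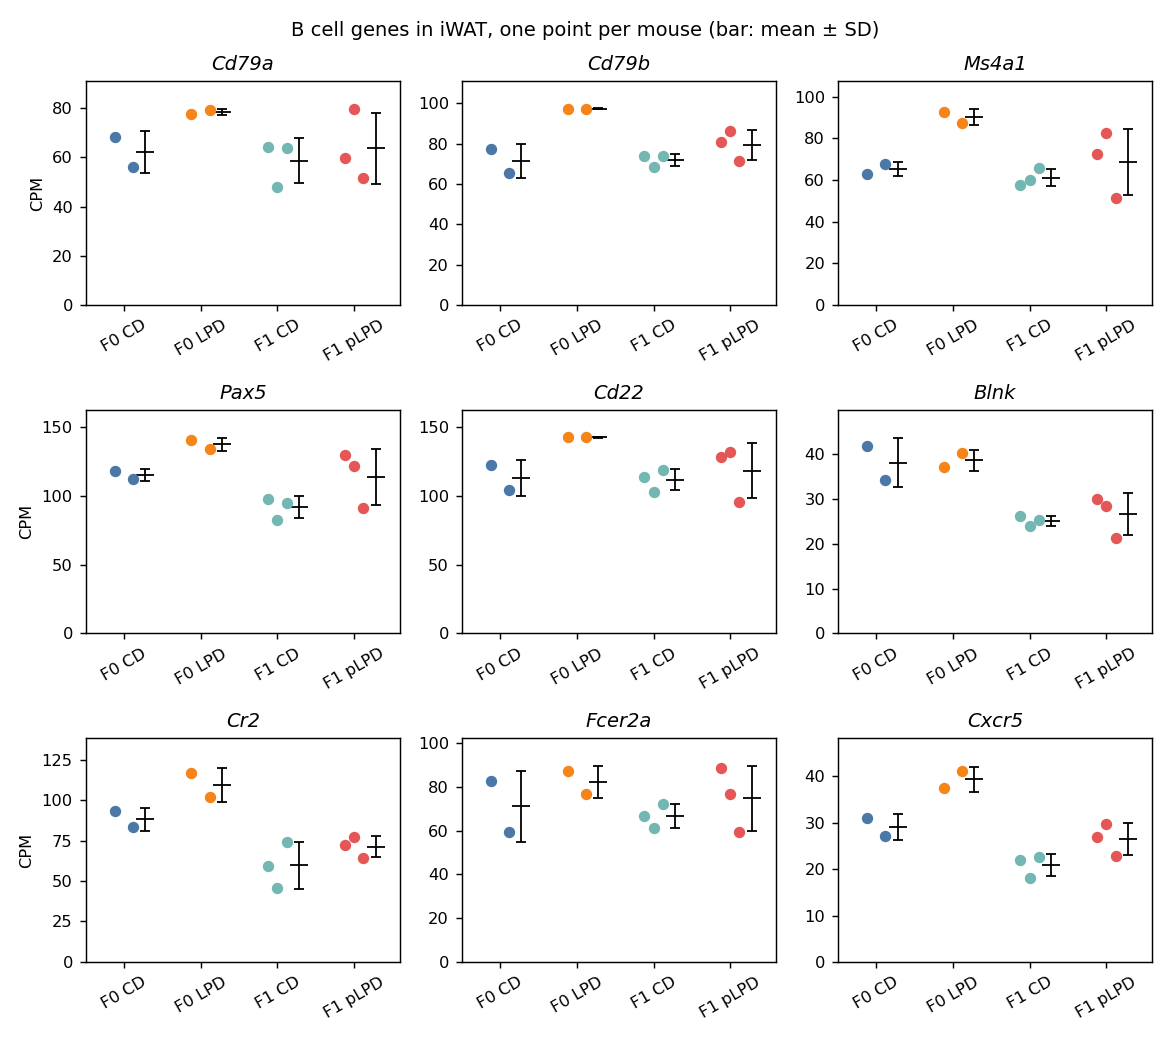
Level of each of the 9 B cell genes in CPM (linear axes from 0), with 1 point per mouse in the F0 CD (n = 2), F0 LPD (n = 2), F1 CD (n = 3) and F1 pLPD (n = 3) groups, and the mean ± SD beside them. Both F0 LPD mice lay above both F0 CD mice in 7 of the 9 genes, and in F1 the groups overlapped in all genes but Cxcr5.

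In the sons, no B cell gene passed the test for the father's diet. All 9 had a positive fitted difference in F1 pLPD against F1 CD mice after TMM normalization, from 0.09 (Cd22) to 0.36 (Cxcr5) on the log2 scale, but on the authors' RPKM scale only 3 were positive and 6 negative. On that scale the median of all tested genes itself lay at −0.15, and all 9 B cell genes lay above it. In all 9 genes, pLPD mouse 3 had the lowest level of the 3 pLPD mice.

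The receptor pair overlapped between the paternal diets. Cd79a was at 64.0, 48.0 and 63.9 CPM in the F1 CD mice and at 59.8, 79.6 and 51.7 CPM in the F1 pLPD mice. Cd79b was at 73.7, 68.4 and 73.8 CPM against 80.6, 86.1 and 71.3 CPM. In both genes pLPD mouse 2 was the highest of the 6 and pLPD mouse 3 lay within the CD range. The fitted log2 fold changes were 0.14 (SE 0.16) for Cd79a and 0.15 (SE 0.10) for Cd79b. Blnk, which links the receptor to its downstream enzymes, was at 26.1, 23.8 and 25.2 CPM in F1 CD mice and at 29.96, 28.4 and 21.3 CPM in F1 pLPD mice. Its pLPD values in mice 1 and 2 lay above and that in mouse 3 below every CD value, and the fold change was 0.10 (SE 0.14).

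Pax5, the lineage factor, was at 98.1, 82.9 and 95.0 CPM in F1 CD mice and at 130, 122 and 91.0 CPM in F1 pLPD mice. The pLPD mice 1 and 2 were well above the controls and mouse 3 among them. The log2 fold change was 0.32 (SE 0.13), with an unadjusted p of 0.0277 and a Benjamini-Hochberg adjusted p of 0.260 in edgeR's quasi-likelihood test. Cxcr5, the follicle-homing receptor, was at 22.0, 18.1 and 22.5 CPM against 26.9, 29.8 and 22.9 CPM. It was the only one of the 9 genes in which every pLPD mouse lay above every CD mouse, though mouse 3 did so by less than 1 CPM. Its log2 fold change was 0.36 (SE 0.14), with an unadjusted p of 0.0269 and an adjusted p of 0.257 by the same edgeR test, and it was 0.079 when reads on the whole gene were counted.

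Among the surface proteins of mature B cells, Cr2, the complement receptor, was at 59.1, 45.4 and 74.4 CPM in F1 CD mice and 72.5, 77.2 and 64.3 CPM in F1 pLPD mice. Ms4a1 was at 57.4, 60.2 and 65.6 CPM against 72.3, 82.5 and 51.4 CPM. Cd22, an inhibitory lectin, ranged from 103 to 119 CPM in F1 CD mice and from 95.2 to 132 CPM in F1 pLPD mice. Fcer2a, the low-affinity IgE receptor, ranged from 61.3 to 72.1 CPM against 59.1 to 88.5 CPM. In pLPD mouse 3, Ms4a1, Cd22 and Fcer2a lay below every CD value and Cr2 within the CD range. The groups overlapped in all 4 genes, and their log2 fold changes were 0.27 (Cr2), 0.18 (Ms4a1), 0.09 (Cd22) and 0.18 (Fcer2a), with SEs of 0.12 to 0.15.

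Across the set, edgeR's quasi-likelihood test called 0 of the 9 genes in F1, where it called 1.17% of all 14049 genes tested. DESeq2 also called 0. At an unadjusted p under 0.05, 2 of the 9 were higher, against 6.57% of all genes, and 1 of the 9 (Cxcr5) had non-overlapping groups with pLPD higher, against 9.2%. A positive fold change was seen in 51.4% of all genes. The median log2 fold change was 0.18, beside 0.01 over all genes. It was 0.31 without pLPD mouse 3 and 0.08 without pLPD mouse 2, the mouse with the highest level of 6 of the 9 genes. Library composition moved with the paternal diet: the share of gene reads on exons was 39.3% to 45.4% in F1 pLPD and 49.2% to 51.2% in F1 CD mice. Mitochondrial rRNA took 13.5% to 18.2% of gene reads in F1 pLPD and 9.29% to 10.5% in F1 CD mice. The 6 macrophage genes summed to 670 to 755 CPM in F1 pLPD and 951 to 1165 CPM in F1 CD mice, with a median log2 fold change of −0.53 and 4 called lower by edgeR and 5 by DESeq2. The part of the macrophage and rRNA differences in the B cell values was not tested. With the exon share as a covariate, 4 of the 9 differences turned negative (Pax5 −0.03, Cd22 −0.11, Blnk −0.21 and Fcer2a −0.25).

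In the F0 males that ate the diets themselves, 1 of the 9 B cell genes passed the test, Ms4a1, which rose 1.38-fold in the LPD mice. Both F0 LPD mice lay above both F0 CD mice in 7 of the 9 genes, the exceptions being Blnk and Fcer2a. All 9 fitted differences were positive, and on the RPKM scale all but that of Blnk.

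Ms4a1 was at 63.0 and 67.5 CPM in the F0 CD mice and at 92.7 and 87.4 CPM in the F0 LPD mice. The 2 diets were thus further apart than the mice within either. Its log2 fold change was 0.46 (SE 0.09, edgeR's quasi-likelihood test, adjusted p = 0.0351). The call was lost with DESeq2 (adjusted p = 0.0779), with uniquely matching reads only (log2 fold change 0.40, adjusted p = 0.151) and when any of the 4 mice was left out. With unique reads, Cd79b was called in its place (log2 fold change 0.45, adjusted p = 0.0474).

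Cd79b was at 77.3 and 65.5 CPM in the F0 CD mice and at 97.4 and 97.3 CPM in the F0 LPD mice. Its log2 fold change of 0.45 (SE 0.10) had an adjusted p of 0.0556 in edgeR's quasi-likelihood test. Its partner Cd79a was at 68.1 and 56.1 CPM against 77.5 and 79.1 CPM, with a log2 fold change of 0.34 (SE 0.10). For both receptor genes the LPD mice were close together and the gap to CD mouse 1 was smaller than that to CD mouse 2. Cxcr5 was at 31.1 and 27.0 CPM against 37.5 and 41.1 CPM. Its log2 fold change was 0.44 (SE 0.11), with an adjusted p of 0.0853 in the edgeR test.

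Of the other genes, Cd22 was at 122 and 104 CPM in F0 CD mice and at 143 CPM in both F0 LPD mice. Pax5 was at 118 and 112 CPM against 141 and 134 CPM, and Cr2 at 93.2 and 83.2 CPM against 117 and 102 CPM. Their groups did not overlap, and the log2 fold changes were 0.34, 0.26 and 0.31, with adjusted p-values of 0.129, 0.184 and 0.170 in the edgeR test. Fcer2a was at 82.6 and 59.4 CPM against 87.4 and 76.9 CPM, and Blnk at 41.8 and 34.1 CPM against 36.9 and 40.2 CPM. In these 2 genes the mice of the diets were interleaved, and the log2 fold changes were 0.21 (SE 0.15) and 0.02 (SE 0.12).

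The F0 call of 1 of the 9 genes stood beside 1.18% of all 14581 genes called higher and 2.5% called in either direction. At an unadjusted p under 0.05, 7 of the 9 were higher, against 7.53% of all genes, and 7 of the 9 had non-overlapping groups with LPD higher, against 22.9%. A positive fold change was seen in 50.1% of all genes, and the median log2 fold change was 0.34 for the 9 genes and 0.00 over all genes. The 9 genes varied together between mice (see the co-variation values) and were chosen with earlier results of these data known. In each comparison, counts over them are therefore not counts of separate observations and do not test the set. F0 CD mouse 2 held the lowest F0 level of 8 of the 9 genes. The median was 0.23 without that mouse and 0.46 without F0 CD mouse 1. Some other tissue markers moved with the diet eaten. The 4 skeletal muscle genes summed to 941 to 1400 CPM in F0 CD and 549 to 744 CPM in F0 LPD mice, and 2 of them (Acta1 and Myh7) were called lower by edgeR, of which DESeq2 called only Myh7. The macrophage receptor Cd163 fell by 0.47 and the adipocyte hormone Retn by 0.78 on the log2 scale (edgeR, adjusted p-values 0.0358 and 0.0234). DESeq2 called Retn and not Cd163. Their lists did not fall as a whole. A positive fold change was seen in 3 of the 6 macrophage genes (list median −0.097) and 5 of the 6 adipocyte genes (list median 0.15). Mitochondrial rRNA took 9.59% to 9.85% of gene reads in F0 CD and 10.9% to 12.4% in F0 LPD mice. The part of these differences in the B cell values was not tested.

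**Figure D2:**
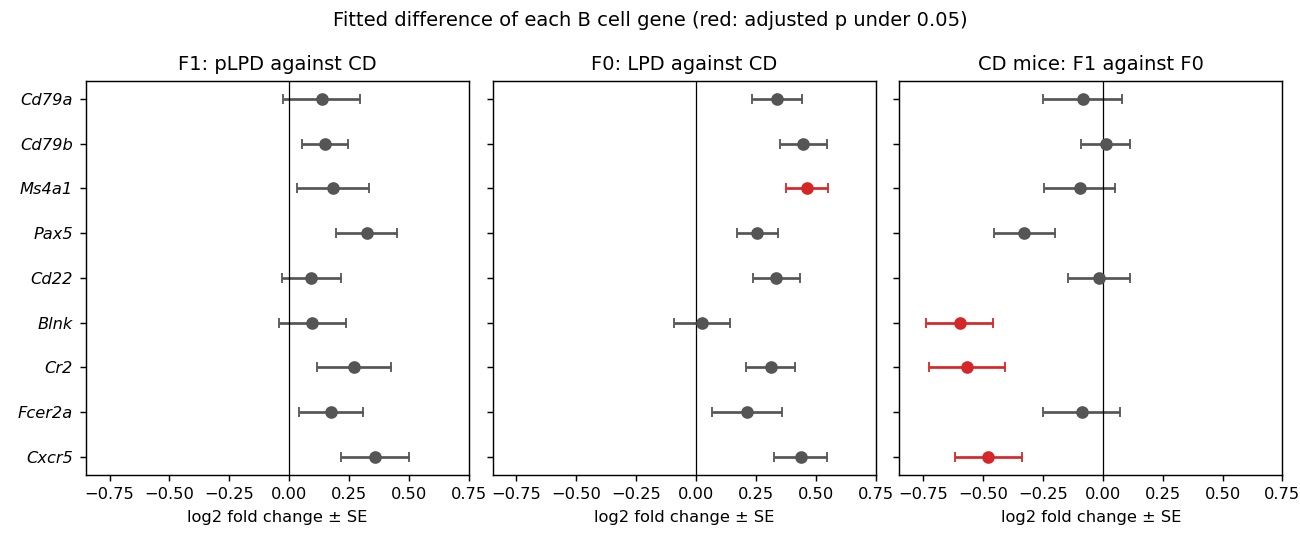
Fitted log2 fold change ± SE of each B cell gene (x axis) in 3 comparisons: F1 pLPD against CD, F0 LPD against CD, and F1 CD against F0 CD. Red marks an adjusted p under 0.05, which only Ms4a1 reached in F0 and only Blnk, Cr2 and Cxcr5 reached between CD mice of the 2 generations.

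Whether the diet difference itself was unequal between generations was tested in a fit of all 10 libraries. The interaction was called in 0 of the 9 genes by edgeR's quasi-likelihood test and by DESeq2, against 1.25% of all genes, and 0 of the 9 reached an unadjusted p under 0.05 in edgeR, against 12.5% of all genes. The smallest p belonged to Cd79b, with a log2 difference of −0.31 (SE 0.14, adjusted p = 0.405, edgeR), meaning a smaller diet difference in F1 than in F0. The values ran from there to 0.06 for Blnk, with a median of −0.08. A diet difference called in F0 and not in F1 is therefore not shown to differ between them.

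Between control mice, 3 of the 9 B cell genes were lower in the F1 mice of 5 weeks than in the F0 mice of 10 to 12 weeks. These were Blnk, Cr2 and Cxcr5, which fell while the receptor pair, Ms4a1, Cd22 and Fcer2a had differences of −0.10 to 0.01 on the log2 scale. The mice of the 2 generations also differed in age and in the series of library names that their labels give, so these factors cannot be told apart.

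The values of Blnk in the F0 CD mice, 41.8 and 34.1 CPM, were all above those of the F1 CD mice, of which the highest was 26.1 CPM. Its log2 fold change was −0.60 (SE 0.14, edgeR's quasi-likelihood test, adjusted p = 0.0101). Cr2, at 93.2 and 83.2 CPM in F0, did not exceed 74.4 CPM in F1 CD mice, with a log2 fold change of −0.57 (SE 0.16, edgeR, adjusted p = 0.0241). Cxcr5, at 31.1 and 27.0 CPM in F0, did not exceed 22.5 CPM in F1 CD mice, with a log2 fold change of −0.48 (SE 0.14, edgeR, adjusted p = 0.0295). Pax5 was also lower in each F1 CD mouse, with a log2 fold change of −0.33 (SE 0.13, edgeR, adjusted p = 0.0928).

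The 3 calls stood beside 8.78% of all 15111 genes called lower and 18.9% called in either direction, and 4 of the 9 had non-overlapping groups with F1 lower, against 24.7%. The median of the set was −0.10, beside 0.01 over all genes. On the RPKM scale, where the median of all genes was −0.12, these 4 genes remained the lowest of the 9. None of the 9 was called without F0 CD mouse 1. Only Blnk was called without F0 CD mouse 2, without F1 CD mouse 1 or 2, or when reads on the whole gene, introns included, were counted. Other tissue markers moved with generation: the 4 skeletal muscle genes summed to 941 to 1400 CPM in F0 CD and 59.1 to 122 CPM in F1 CD mice, and the 6 adipocyte genes to 12435 to 13002 CPM and 9801 to 10955 CPM. Their part in the result was not tested.

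Other genes of the B cell were examined in lists. Of 20 further B cell genes, 0 passed edgeR's test or DESeq2 in F1, where edgeR called 1.17% of all genes. At an unadjusted p under 0.05 in edgeR, 1 was higher, the cytokine receptor Tnfrsf13b (log2 fold change 0.31), against 6.57% of all genes. In F0, 2 of the 20 were called higher in edgeR, Bank1 and H2-Ob, against 1.18% of all genes, and DESeq2 called only Bank1. At an unadjusted p under 0.05 in edgeR, 10 were higher, against 7.53% of all genes. Bank1, a scaffold of the receptor pathway, was at 124 and 111 CPM in F0 CD mice and 166 and 170 CPM in F0 LPD mice (log2 fold change 0.52, SE 0.09, edgeR, adjusted p = 0.0266). H2-Ob, a chain of the class II peptide-loading modulator of B cells, was at 47.3 and 41.0 CPM against 64.6 and 62.5 CPM (log2 fold change 0.53, SE 0.10, edgeR, adjusted p = 0.0313). The F0 LPD mice were above the controls in both. The list's median log2 fold change was 0.11 in F1 and 0.29 in F0.

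Ebf1, the factor that acts with PAX5 in B cells and is also expressed in fat, was the most abundant of the 20 at a mean of 241 CPM. It fell by 0.41 on the log2 scale in F1 CD against F0 CD mice (SE 0.11, edgeR, adjusted p = 0.0172), while H2-Ob rose by 0.45 (SE 0.15, edgeR, adjusted p = 0.0474). The diet differences of Ebf1 passed the test in neither generation. Of 15 genes of receptor signalling, 0 passed edgeR's test or DESeq2 for diet in F1 or F0. At an unadjusted p under 0.05 in edgeR, 1 was higher and 1 lower in F1, and 2 were higher in F0. The shares of all genes higher at that p were 6.57% in F1 and 7.53% in F0. The kinase Syk was at 151 and 143 CPM in F0 CD mice and 192 and 186 CPM in F0 LPD mice (log2 fold change 0.36, SE 0.09, edgeR, adjusted p = 0.0760). Pik3cd, a lipid kinase of lymphocytes, was higher in F1 CD than in F0 CD mice by 0.40, as was the exchange factor Vav1 by 0.31, and the inhibitory receptor Fcgr2b was lower by 0.42 (edgeR, adjusted p-values 0.0382, 0.0446 and 0.00877). Cxcl13, the ligand of CXCR5, fell by 0.66 in F1 CD against F0 CD mice (SE 0.20, edgeR, adjusted p = 0.0400), from 32.9 and 49.96 CPM to 25.1, 19.9 and 34.4 CPM. It was at 57.0 and 69.1 CPM in the F0 LPD mice (log2 fold change 0.60, edgeR, adjusted p = 0.129) and at 21.6, 24.4 and 21.8 CPM in the F1 pLPD mice. In F0 the lymph node stroma list, to which Cxcl13 belongs, had a median log2 fold change of −0.39, and 0 of its 10 genes were called by edgeR or DESeq2. Chst4 (−1.55), Tnfsf13b (−0.71) and Ccl21a (−0.38) were lower at an unadjusted p under 0.05 in edgeR, and Cxcl13 was the only gene higher at that p. Chst4 was low, at 2.68 and 1.89 CPM in F0 CD and 1.15 and 0.35 CPM in F0 LPD mice. The last of these values lay at the level of 3 reads, so its fold change is uncertain. Between CD mice, Glycam1 rose by 1.60 (SE 0.22, edgeR, adjusted p = 0.00043), and Tnfsf13b was the other gene of the list called lower by edgeR (log2 fold change −0.67).

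T cells, the other main lymphocyte of nodes and fat, gave values that differed from those of the B cell genes. The 9 B cell genes summed to 568 ± 51.2 CPM in F1 CD and 643 ± 101 CPM in F1 pLPD mice (SD, n = 3 each), and to 654 ± 62.6 CPM in F0 CD and 816 ± 20.9 CPM in F0 LPD mice (SD, n = 2 each). The 13 T cell genes summed to 433 to 505 CPM in F1 CD and 533 to 662 CPM in F1 pLPD mice, and to 341 to 406 CPM and 305 to 410 CPM in F0 CD and F0 LPD mice. Their median log2 fold change was 0.41 in F1, with 0 genes called by edgeR, 1 (Trbc2) called by DESeq2 and 11 of 13 higher at an unadjusted p under 0.05 in edgeR, against the 6.57% of all genes given above. It was −0.07 in F0, with 0 called by either tool and 1 lower at that p. Between CD mice, 4 of the 13 T cell genes (Cd5, Zap70, Trbc1 and Cd3d) were called higher in F1 by edgeR and 0 lower, against 10.1% of all genes called higher.

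**Figure D3:**
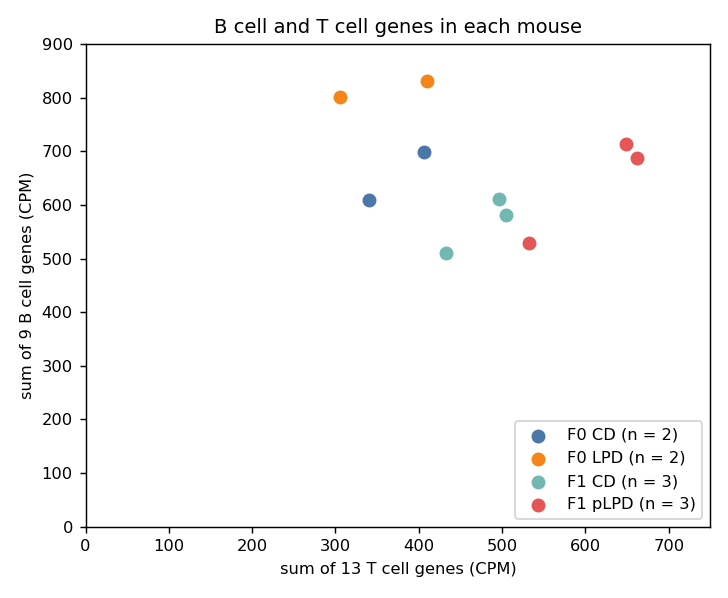
Sum of the 9 B cell genes (y axis, CPM) against the sum of 13 T cell genes (x axis, CPM), with 1 point per mouse and both axes from 0. The F0 LPD mice had the highest B cell sums (801 and 830 CPM), and the F1 pLPD mice had the highest T cell sums (533 to 662 CPM).

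Mice of the same group differed in the B cell genes together. After each gene was set relative to its group mean, Pearson's r over the 10 libraries was positive in 36 of 36 pairs of the 9 genes, with a median of 0.76 and a range of 0.42 to 0.95. Cd22 followed the mean of the other 8 most closely (r = 0.98) and Cr2 least (r = 0.68). These values share the libraries and their composition, and are descriptions over 10 libraries with no test. Once group means are taken out, the 2 mice of each F0 group mirror each other, so r rests on fewer independent values than 10. The genes with the most similar pattern were Rev3l (r = 0.99), a translesion DNA polymerase, Pik3cd (0.99), Syk (0.97), Rapgef6 (0.97), Hspb2 (0.97), Nup210 (0.97), Erfe (0.96), Gen1 (0.96), Bank1 (0.96) and Apeh (0.96). Hspb2, Erfe and Gen1 were low, at means of 1.39, 1.71 and 3.36 CPM. The 10 genes named are the selected top of 14558 genes, whose r ran from −0.98 to 0.99. Values this high are therefore in part a product of that selection.

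By list, the median r with the mean of the 9 genes was 0.87 for the 20 further B cell genes and 0.82 for the 15 signalling genes. It was 0.63 for the T cell genes, −0.10 for lymph node stroma, −0.27 for macrophage genes and −0.42 for adipocyte genes, beside −0.04 over 14558 genes of at least 1 CPM. Ebf1 (r = −0.35) was the only one of the 20 further B cell genes with a negative value. Of the lymph node list, the lymphocyte cytokine Ltb followed the B cell genes (r = 0.93), whereas Glycam1 did not (r = −0.45). All 6 adipocyte genes were negative, with Retn the lowest (r = −0.86).

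**Figure D4:**
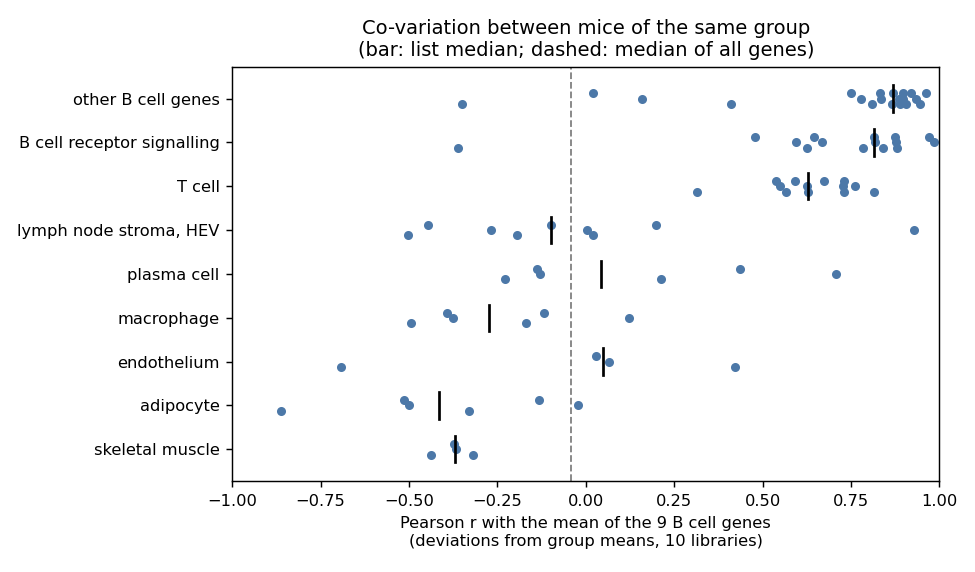
Pearson's r of single genes with the mean of the 9 B cell genes (x axis), after setting each library relative to its group mean, over 10 libraries and by gene list (rows). Points are genes, bars list medians (0.87 for other B cell genes, −0.42 for adipocyte genes), and the dashed line the median of all genes (−0.04).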

How the data were processed

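Total RNA of iWAT was depleted of rRNA and sequenced as paired reads with a directional kit, and the authors aligned them to mm10 with CLC Genomics Workbench. The alignment parameters are not given in the sources used here. The deposited counts are raw, with a column each for reads on the exons, the introns and the whole of a gene. Total exon reads were used for every test. The deposited RPKM values divide exon reads by exon length and by a library total of the authors that lay between 14462489 and 19039664 reads, and were used for levels between genes. The deposited TPM values were not used.

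Counts were compared in R 4.3.3 with edgeR 4.0.16 (filterByExpr, TMM, two-sided quasi-likelihood F test, Benjamini-Hochberg adjustment over all genes tested, threshold 0.05). F1 and F0 were fitted apart, and the interaction and the CD mice of both generations in a fit of all 10 libraries. The SE was computed as the log2 fold change over the root of the F statistic. CPM are those of the TMM-normalized library. P-values set a difference against the spread between mice of a group. In F1 these mice are sons. How the sons of a group were divided among fathers is not stated in the sources used here, so the spread between fathers was not measured. Between replicates of a group, the variance was 4.59 to 13.1 times that of counting error alone (chi-square per degree of freedom), so each was counted as a separate replicate. The main fits have no block on the replicate number.

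The 9 genes and the companion lists were chosen with earlier results of these data known. The genes named are the 9 members, list genes past the threshold or among the 2 most abundant of a list, and the 10 genes most correlated with the members. Tnfrsf13b, Syk in F0, Chst4, Glycam1, Cxcl13 under the diets, Ltb and Retn were described outside this rule or after their values were seen. Alternatives were DESeq2 1.42.0, its size factors, 2 other filters, other samples in the fit, a replicate block, other read columns, the exon share as a covariate and each mouse left out. The RPKM scale, as log2(RPKM + 0.1), was added after seeing the data. Coordinates are those of GENCODE M21, which match the files for 9 of 9 genes. The scripts were tested on simulated data.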

Additional observations from a re-analysis of the deposited data

Results flagged for a closer look

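The ratio of the summed B cell genes to the summed T cell genes moved in opposite directions with diet in the 2 generations. This ratio was chosen after seeing the data, and the difference between generations was not tested. In F1 the ratio was 1.15, 1.18 and 1.23 in the CD mice and 1.04, 1.10 and 0.992 in the pLPD mice, so that every pLPD mouse lay below every CD mouse, with a mean log2 difference of −0.19. In F0 it was 1.72 and 1.79 in the CD mice and 2.02 and 2.62 in the LPD mice, so that both LPD mice lay above both CD mice, with a mean log2 difference of 0.39. The F0 LPD group had the widest spread, since mouse 2 combined a high B cell sum with the lowest T cell sum of all 10 mice (305 CPM). Over other read columns, RPKM sums and list medians, the groups did not overlap in either generation, with log2 differences of −0.25 to −0.15 in F1 and 0.33 to 0.43 in F0.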

How the results depend on the processing

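With 2 or 3 mice a group, the calls in F0 and between CD mice depended on single mice. In F1, 0 of the 9 genes were called under each of 10 alternatives and without any mouse. The F1 median was −0.0079 on the RPKM scale, and with the exon share as a covariate Pax5 (−0.028), Cd22 (−0.11), Blnk (−0.21) and Fcer2a (−0.25) reversed. Without 1 mouse, the F1 fold change of Cd79a ran from −0.068 to 0.26, Ms4a1 0.021 to 0.35, Cd22 0.00016 to 0.22, Blnk 0.0089 to 0.23, Fcer2a 0.042 to 0.31 and Cr2 0.11 to 0.46. In F0, where 1 gene was called, 0 were called with DESeq2 and with all 4 groups in one fit, and 6 with no filter on low counts. Calls among all genes moved too. They numbered 364 in the main F0 fit, 374 with DESeq2, 175 with all 4 groups and 1343 with no filter. Without 1 mouse, the F0 count was 0 to 1, the median 0.23 to 0.46, Blnk −0.12 to 0.17 and Fcer2a −0.0045 to 0.47. An F0 exon share covariate was not run, since too few libraries are left.

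For the interaction, Blnk reversed to −0.078 with whole-gene reads and −0.18 with the exon share, and Pax5 to −0.22 with the exon share. Without 1 mouse, the interaction ran from −0.038 to 0.20 for Pax5, −0.072 to 0.20 for Blnk, −0.21 to 0.15 for Cr2, −0.29 to 0.17 for Fcer2a and −0.18 to 0.013 for Cxcr5, and 0 of the 9 were called in each case. Between CD mice, whole-gene reads left 1 call of 3 and turned Pax5 to 0.0097. Cd79b turned to −0.0030 with no filter and to −0.041 with the exon share, which also moved the median to −0.36. Without 1 mouse, the count there was 0 to 4, the median −0.31 to −0.087, Cd79a −0.22 to 0.052, Cd79b −0.11 to 0.13, Cd22 −0.13 to 0.10 and Fcer2a −0.31 to 0.16. The F1 ratio to T cell genes was −0.25 with RPKM sums. The cause of these changes was not tested.

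Mice that share a replicate number hardly deviated together (correlations of 0.0010 to 0.053 in F1 and 0.054 in F0). Mice with different numbers gave −0.072 to 0.069 in F1 and −0.054 in F0. The F0 values mirror each other because each F0 group has 2 mice. With so few mice, these correlations cannot decide whether the numbers pair the samples. With the replicate block, 0 of the 9 genes were called in F1, 6 in F0 and 2 between CD mice, where Cd22 turned to 0.037. The block also raised the calls among all genes, from 164 to 260 in F1 and from 364 to 1391 in F0.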

Other observations

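Irf4, a factor of activated B cells and plasma cells that T cells and adipocytes also express, was the plasma cell list's only gene past the threshold for the diet eaten. It was at 61.2 and 70.8 CPM in F0 CD mice and at 41.4 and 41.0 CPM in F0 LPD mice (log2 fold change −0.68, SE 0.10, edgeR's quasi-likelihood test, adjusted p = 0.0164). In F1 it was at 37.0, 32.2 and 37.6 CPM in CD and at 41.1, 46.2 and 43.0 CPM in pLPD mice, and the interaction of generation and diet was called (log2 difference 0.97, SE 0.15, edgeR, adjusted p = 0.00965). In F0 its difference was thus opposite in sign to those of the 9 B cell genes in the same mice.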
